A study of Mus musculus with 6 samples.

Results

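The muscle acetylcholine receptor and the MuSK complex that clusters it were followed across 6 arrays from sorted mouse muscle cells. The set holds 10 genes, taken by symbol: the receptor subunit genes Chrna1, Chrnb1, Chrnd, Chrne and Chrng, and Rapsn, Musk, Dok7, Lrp4 and Colq. They are read by 13 probe sets whose only gene symbol is a member, out of 45037 probe sets on the array. Of these, 7 probe sets of 7 genes passed the filter on low values, and the other 6 did not. Chrnd, Chrne and Colq had no probe set past it.

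The arrays compare PICs (PW1-expressing interstitial cells, progenitors that lie between muscle fibres) with satellite cells, the stem cells that lie against the fibre. Both came from the hindlimb muscles of C57 black 6 mice aged 7 to 9 days, a strain and age the populations share. The cells were sorted by flow cytometry on CD34 and Sca1, and no transgene or drug is named in the labels. There were 3 arrays per population, called biological replicates by the labels, which do not say how many mice a replicate pools.

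The adult form of this receptor is a channel of alpha, beta, delta and epsilon subunits, and the fetal form carries gamma in place of epsilon. At the nerve ending agrin from the motor neuron binds Lrp4, which activates the kinase MuSK, and Dok7 is the adaptor that MuSK needs for full activity. Rapsyn, the product of Rapsn, holds the receptors in clusters, and the collagen tail protein ColQ anchors acetylcholinesterase in the synaptic cleft. In cultured and embryonic muscle, receptor genes are switched on as myoblasts differentiate, through E-boxes bound by MyoD family factors. In innervated fibres their transcripts become restricted to nuclei under the synapse.

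Intensities below are the deposited values on a linear scale. Means, standard deviations (SD) and differences are on the log2 scale, and a difference is PICs minus satellite cells. An intensity of 16 or less (log2 of 4 or less) is treated as a low value at which no level was measured. A gene was called when limma gave an adjusted p under 0.05 and the difference reached 1, which is 2-fold. The levels of different genes are not set against each other, since each probe set has its own sensitivity.

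The labels were checked on marker genes. All 12 satellite cell markers were called higher in satellite cells, among them Pax7 (-4.79), Cdh15 (-5.78) and Myod1 (-5.84). Of 9 interstitial mesenchymal markers with a probe set, 8 were called higher in PICs, among them Pdgfra (3.92), Osr1 (5.03) and Cd34 (1.92). CD34 was used in the sort, so Cd34 is no independent check of the labels. Osr1 read 14, 6 and 20 on the satellite arrays, near or under the low value level, so the size of its difference is uncertain. Clec3b, another of the 8, passed the filter only through its PIC arrays. Ly6a, the gene of Sca1, was not analysed here. The satellite arrays also read high for markers of differentiating myocytes, all 8 of which were called there and are given below. Between arrays of 1 population the correlation over genes was 0.956 to 0.986, and between populations it was 0.800 to 0.850. Over all 10855 genes tested, 29.8% were called: 13.0% towards satellite cells, 16.7% towards PICs.

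Receptor and MuSK complex genes read high in satellite cells and low in PICs, with Lrp4 as the exception among the genes that could be tested. Of the 7 tested members, 6 were called higher in satellite cells, against 13.0% of all genes tested, and 0 were called higher in PICs, where 1 had an unadjusted limma p under 0.05. Their median difference was -4.05, beside -0.04 over all genes tested. In each of these 6 genes the satellite arrays all lay above the PIC arrays, an order found in 33.2% of all genes tested. Rapsn and Chrng passed the filter only through their satellite arrays, so the filter let them in as genes that differ. Their calls, which the count and the median include, are therefore no support for a difference. The called members with PIC arrays above the low value level were Chrna1, Chrnb1, Dok7 and Musk. Since each array holds RNA of a sorted pool, fewer cells carrying a transcript and less transcript per cell cannot be told apart.

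**Figure D1:**
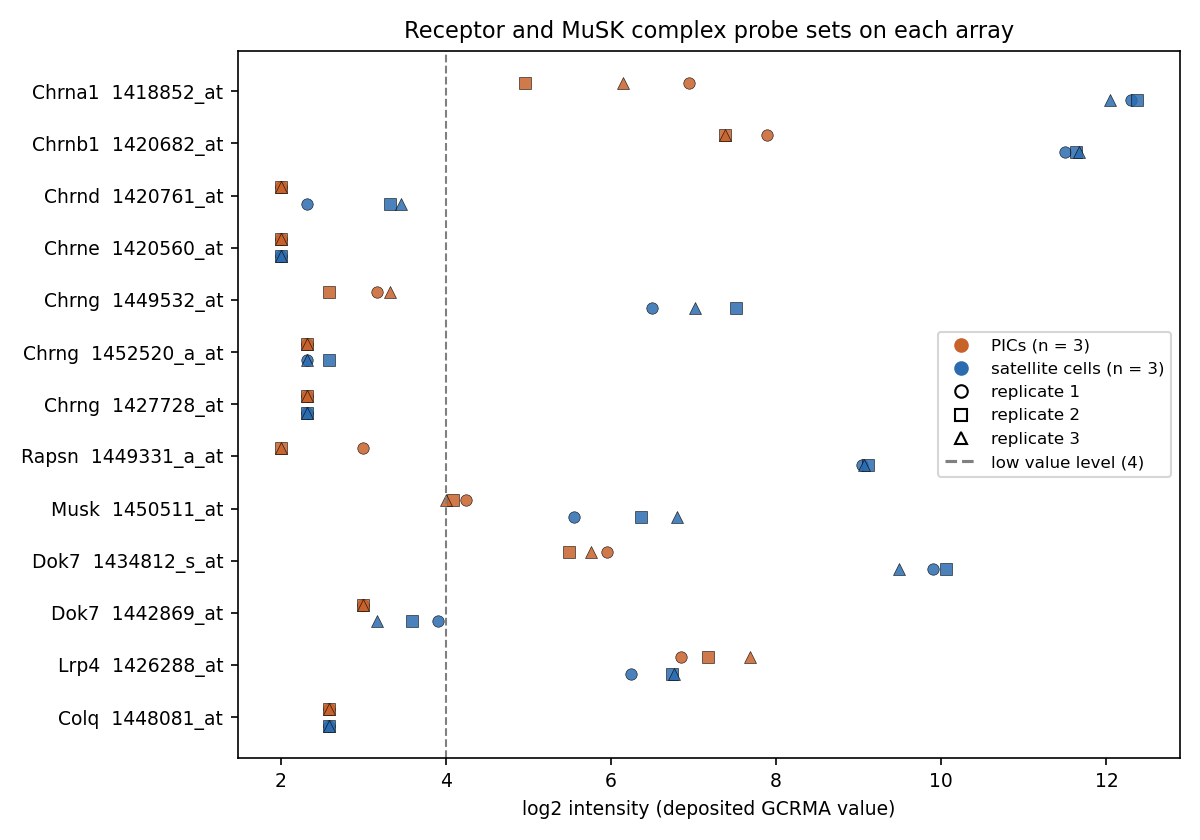
Log2 intensity (horizontal axis) of each of the 13 probe sets (vertical axis, with gene symbol) on the 3 PIC arrays (orange) and the 3 satellite arrays (blue), with marker shape giving the replicate number and the dashed line the low value level of 4. Chrna1, Chrnb1, Rapsn, Dok7, Musk and 1 of 3 Chrng probe sets are parted between the populations, while Chrne and Colq sit at 1 low value on all 6 arrays.

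Chrna1 encodes the alpha subunit, which forms most of the acetylcholine binding site. Its intensity was 5046, 5293 and 4214 on satellite arrays 1, 2 and 3, and 123, 31 and 71 on PIC arrays 1, 2 and 3. Every satellite array thus lay far above every PIC array, and all 6 arrays were above the low value level. The log2 mean was 12.24 ± 0.17 in satellite cells and 6.02 ± 1.00 in PICs (SD, n = 3 each), a 74.6-fold difference (limma, difference -6.22, SE 0.47, adjusted p = 0.000137). With arrays weighted by their quality the difference was -7.16. Among the 10029 genes above the low value level on all 6 arrays, this was the 2nd largest difference towards satellite cells.

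Chrnb1, the beta subunit gene, showed the same order with less spread. It read 2895, 3166 and 3248 on the satellite arrays and 237, 166 and 167 on the PIC arrays. Its PIC readings were all above the low value level, and the nearest arrays of the populations were 237 and 2895. The difference was 16.5-fold (log2 -4.05, 95% interval -4.46 to -3.64; limma, adjusted p = 3.51e-05).

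Chrng encodes the gamma subunit, the fetal partner that is exchanged for epsilon as the synapse matures. The Chrng probe set 1449532_at read 90, 183 and 130 on the satellite arrays and 9, 6 and 10 on the PIC arrays. No PIC array reached a measured level, so the satellite cells were at least 8.06-fold higher (limma, fitted difference -3.98, adjusted p = 0.000144). The bound takes the satellite mean against the low value level. Since Chrng passed the filter only through its satellite arrays, its call is no support for a difference. The fitted difference was -2.58 on the log2(value + 16) scale, which damps low readings, and -4.66 with array weights. The other 2 Chrng probe sets, 1452520_a_at and 1427728_at, read 5 or 6 on every array and did not pass the filter. The reading of the gamma subunit therefore rests on 1 of its 3 probe sets.

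Chrne, the gene of the adult epsilon subunit, read 4 on all 6 arrays, so no level was measured in either population. Chrnd, the delta subunit gene, read 4 on each PIC array and 5, 10 and 11 on the satellite arrays. All satellite readings of Chrnd exceeded the PIC readings, yet all 6 stayed under 16 and give no fold. Chrnd and Chrng are next to each other among the protein-coding genes of chromosome 1. The 1449532_at probe set of Chrng was measured in satellite cells, and the single probe set of Chrnd was not.

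The bases before the start sites of 4 receptor genes are shown because these members include ones with large differences (Chrna1, Chrnb1, Chrng) and one that read low throughout (Chrne). They are RefSeq promoter sequences of build GRCm38.p6, read 5′ to 3′ on the strand of the gene and cut where any annotated gene begins. Capitals mark E-boxes (CANNTG, which reads the same on both strands) and the ETS-type motif CCGGAA, the core of the N-box, searched on both strands.
Chrna1, chr2:73580339-73580588, minus strand: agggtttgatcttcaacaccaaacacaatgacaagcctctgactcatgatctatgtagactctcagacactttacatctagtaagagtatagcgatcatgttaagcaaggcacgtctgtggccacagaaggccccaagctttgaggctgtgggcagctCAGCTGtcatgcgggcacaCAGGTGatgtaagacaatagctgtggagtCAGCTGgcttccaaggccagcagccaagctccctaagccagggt
Chrng, chr1:87205561-87205810, plus strand: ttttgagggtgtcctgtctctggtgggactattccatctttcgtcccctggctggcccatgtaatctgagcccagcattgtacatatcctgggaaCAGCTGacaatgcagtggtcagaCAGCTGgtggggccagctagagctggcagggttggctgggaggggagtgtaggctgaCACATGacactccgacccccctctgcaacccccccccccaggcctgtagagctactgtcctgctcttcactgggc
Chrnb1, chr11:69795967-69796067, minus strand: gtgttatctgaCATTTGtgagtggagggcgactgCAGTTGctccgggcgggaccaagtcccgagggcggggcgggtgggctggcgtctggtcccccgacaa
Chrne, chr11:70619214-70619444, minus strand: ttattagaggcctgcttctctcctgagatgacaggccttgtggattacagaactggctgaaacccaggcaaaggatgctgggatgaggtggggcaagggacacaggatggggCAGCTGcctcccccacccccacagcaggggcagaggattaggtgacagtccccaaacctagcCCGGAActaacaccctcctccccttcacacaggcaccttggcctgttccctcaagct

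Windows of 250 bases before the start were given for 6 members: Chrna1, Chrnb1, Chrne, Chrng, Musk and Dok7. Chrna1, Chrnb1, Chrng and Musk each held 3 E-boxes in that window, and 12.2% of all 32851 start-site windows held at least 3. The third E-box of Chrnb1 lies outside the printed stretch, inside an annotated gene. All 3 of Musk lie inside the annotated Musk gene, which leaves only 17 bases of that window uncovered. In Chrna1 the E-boxes begin 92, 73 and 44 bases before the start, and in Chrng 155, 132 and 75 bases before it. The form CAGCTG occurred 2 times each in Chrna1 and Chrng, where 1.26% of all windows hold it 2 or more times. Chrne held 1 E-box, also CAGCTG, and the CCGGAA motif 76 bases before its start, a motif found in 12.0% of all windows. Dok7 has 2 windows, with 1 and 0 E-boxes. That E-box lies inside the annotated Dok7 gene, which covers most of the first window and all of the second. None of the Chrna1, Chrnb1, Chrng, Musk and Dok7 windows held CCGGAA. These are matches of letters and show neither binding nor its absence.

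Rapsn encodes the scaffold protein that tethers receptors under the synapse. Its satellite arrays read 528, 554 and 537, a log2 SD of 0.04, and its PIC arrays read 8, 4 and 4. The PIC readings all lay under the low value level, which makes the satellite cells at least 33.7-fold higher (limma, fitted difference -6.74, adjusted p = 3.51e-05). Since Rapsn passed the filter only through its satellite arrays, this call is no support for a difference. On the log2(value + 16) scale the difference was -4.71.

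Musk, the receptor tyrosine kinase, was read at 47, 82 and 111 on the satellite arrays and at 19, 17 and 16 on the PIC arrays. The satellite arrays were all higher but spread over a log2 range of 1.24, and the PIC arrays lay at or just over the low value level. The fitted difference was -2.12 (95% interval -2.87 to -1.38), or 4.36-fold (limma, adjusted p = 0.00142). With PICs so near the limit, the size of this fold is uncertain, and the satellite mean exceeded the low value level by 2.24. On the log2(value + 16) scale the difference was -1.47.

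Dok7, the cytoplasmic activator of MuSK, read 957, 1069 and 717 on the satellite arrays and 62, 45 and 54 on the PIC arrays with probe set 1434812_s_at. All 6 arrays were above the low value level and the populations did not overlap. The difference was 16.9-fold (log2 -4.08, 95% interval -4.56 to -3.61; limma, adjusted p = 4.67e-05). The ending s_at marks probes that can match more than 1 transcript. A further Dok7 probe set, 1442869_at, read 15, 12 and 9 in satellite cells and 8 on each PIC array, all under 16.

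Lrp4, the agrin receptor, was the tested member that was not higher in satellite cells. Its intensity was 115, 144 and 206 in PICs, and the satellite cells gave 76, 107 and 109. Each PIC array lay above each satellite array, by as little as 115 against 109, an order found in 31.3% of all genes tested. The difference of 0.65 (95% interval 0.04 to 1.26) did not pass the threshold (limma, adjusted p = 0.0686). With the replicate number as a block the adjusted p was 0.012, and the difference was still under 2-fold. Lrp4 was thus measured in both populations.

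Colq, the collagen tail gene, read 6 on all 6 arrays, so no level was measured. Ache, the acetylcholinesterase that this tail anchors, read 4 on all 6 arrays. Bche, which encodes the related butyrylcholinesterase, was 5.45-fold higher in satellite cells (261, 302 and 284 against 55, 40 and 63; limma, adjusted p = 0.000139). Prima1, the membrane anchor of cholinesterases, read 33, 23 and 24 in satellite cells and 15, 14 and 14 in PICs, where no level was measured. Satellite cells were thus at least 1.64-fold higher. Prima1 passed the filter only through its satellite arrays and was not called (limma, fitted difference -0.88, adjusted p = 0.00418). With quantile normalization it was called (-1.21), which is no support for a difference.

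**Figure D2:**
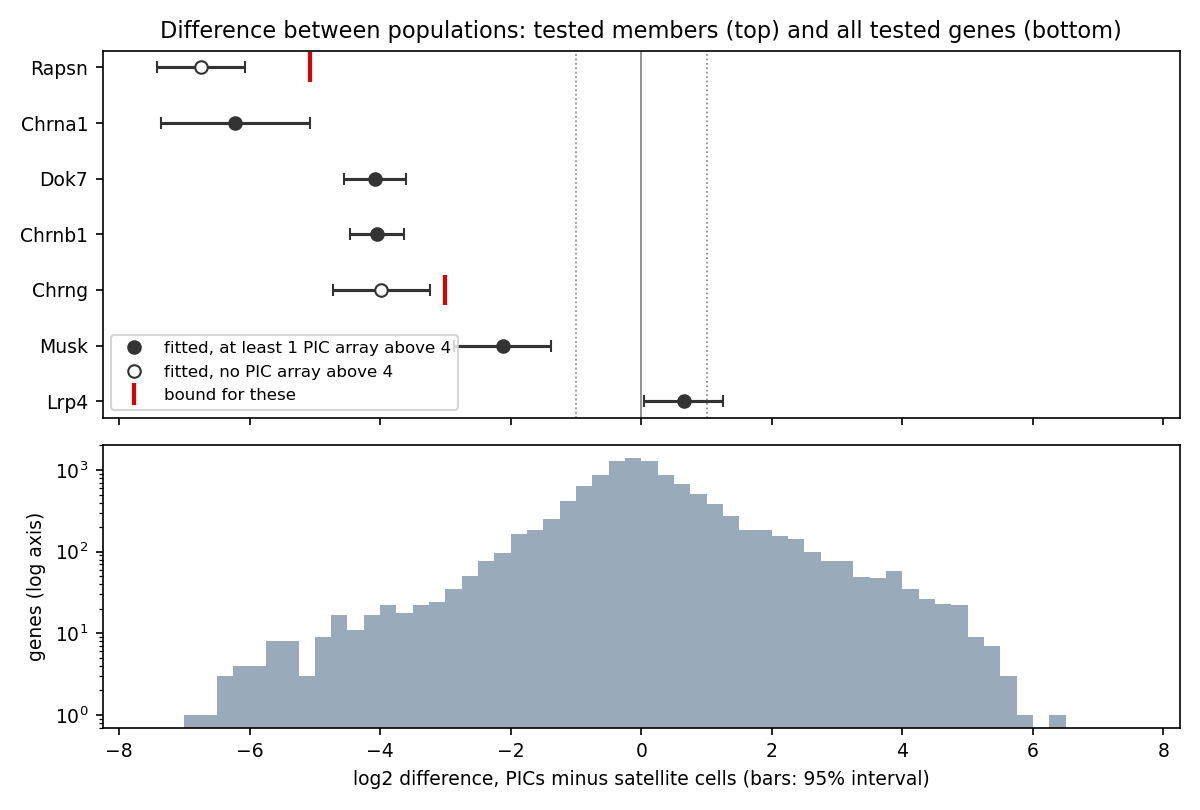
Top: log2 difference (PICs minus satellite cells, horizontal axis) with its 95% interval for the 7 tested members, open points for the 2 genes with no PIC array above the low value level and red bars for their bounds. Bottom: the number of genes (log axis) at each difference over all 10855 genes tested, where Chrna1, Chrnb1, Rapsn, Dok7, Chrng and Musk lie left of -1 and Lrp4 lies between -1 and 1.

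The spread between arrays differed among members. In satellite cells the log2 range over 3 arrays was 0.07 for Rapsn, 0.17 for Chrnb1 and 0.33 for Chrna1, against 1.02 for Chrng and 1.24 for Musk. Satellite replicate 1 was the lowest satellite array for Chrng, Musk, Lrp4, Chrnb1 and Rapsn, with deviations from the population mean of -0.52, -0.68, -0.34, -0.10 and -0.03. In PICs Chrna1 had the widest range of the tested members, 1.99.

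The PIC readings of Chrna1 were as uneven as those of myogenic genes, while Chrnb1, Dok7 and Musk varied less, with PIC ranges of 0.51, 0.46 and 0.25 beside 2.03 for Myod1. On PIC arrays 1, 2 and 3 Chrna1 read 123, 31 and 71, Myod1 read 86, 21 and 33, and Myog, the factor of terminal differentiation, read 547, 137 and 662. PIC replicate 2 was the lowest of the PIC arrays for Chrna1, Dok7, Myod1, Myog, Mymk and Mymx. Pax7 read 236, 87 and 81 and Cdh15 115, 33 and 29 on the same arrays, with replicate 1 highest, as for Chrna1, Chrnb1 and Dok7. Over the 12 satellite cell markers the summed intensity was 8668 to 10924 on PIC arrays and 50738 to 57794 on satellite arrays. No marker was low on all arrays. The largest PIC readings among them were those of Vcam1, Chodl and Notch3, at 3223, 2053 and 1794 on PIC array 2. These genes differed by -1.54, -1.76 and -1.26, beside -4.79 for Pax7 and -5.78 for Cdh15. The part of satellite cell RNA in the PIC readings of receptor genes was not tested.

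**Figure D3:**
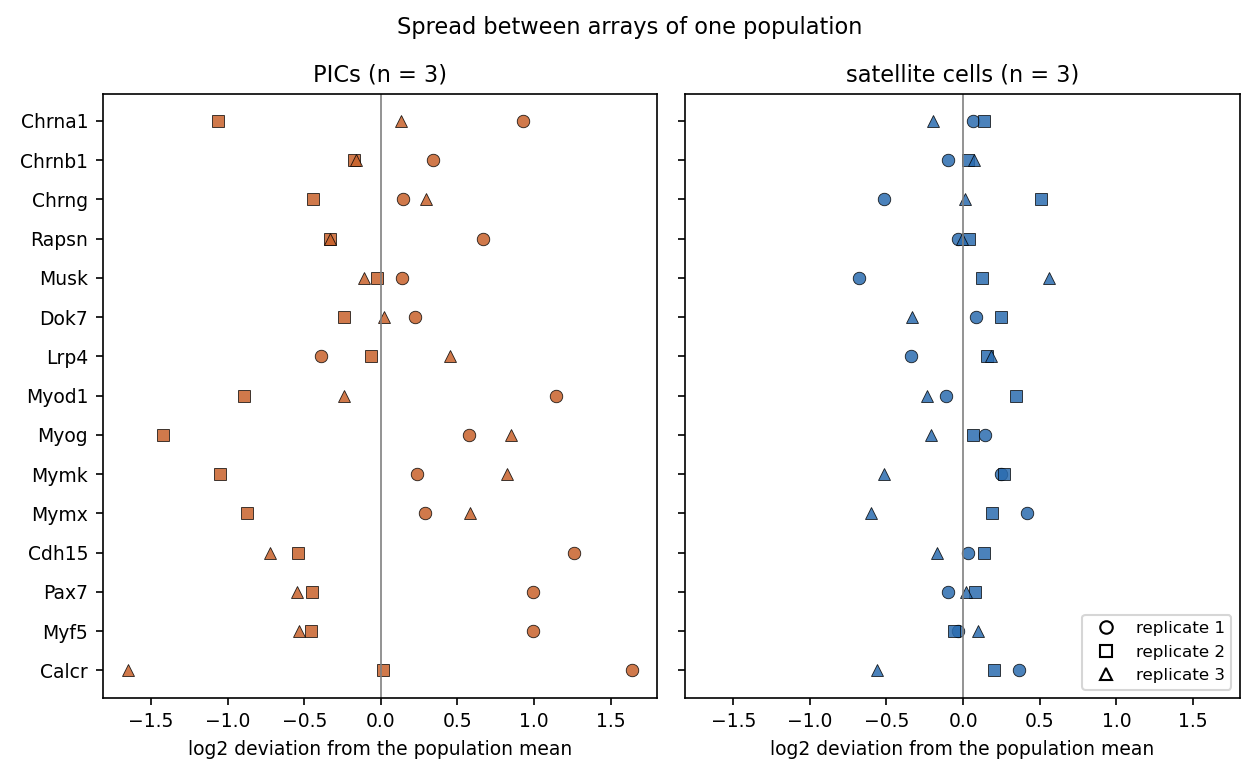
Deviation of each array from its population's mean (log2, horizontal axis) for the 7 tested members and 8 myogenic genes (vertical axis), PICs left and satellite cells right, with marker shape giving the replicate number. In PICs the squares of replicate 2 lie lowest for Chrna1, Myod1, Myog, Mymk and Mymx, and the points of satellite cells lie closer to 0 for Chrna1, Rapsn and Pax7.

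Markers of differentiating myocytes and of fibres were read beside the members, since receptor genes are also active there. All 8 myocyte fusion markers were called higher in satellite cells (median -5.36), with a summed intensity of 22535 to 31698 there and 270 to 927 in PICs. Among them were the fusion genes Mymx (-6.29) and Mymk (-6.20), and Myog, which read 20742, 19700 and 16288 on satellite arrays 1, 2 and 3. Ryr1, also of this list, passed the filter only through its satellite arrays. The 15 tested muscle fibre markers were divided, 5 called towards satellite cells and 7 towards PICs. The 5 were Actn3, Atp2a1, Myh1, Myh8 and Myh3, which is also a myocyte fusion marker here. The 7 were Myh4, Myl1, Mylpf, Pvalb, Tnnc2, Tnni2 and Tnnt3. The summed fibre intensity was 11789, 7549 and 5605 on satellite arrays 1, 2 and 3 and 7061 to 8495 on the PIC arrays, and Myh2, Myh7 and Mb were low on all arrays. Satellite replicate 1, the highest of the satellite arrays for fibre markers, was the lowest for Musk, Chrng, Lrp4, Chrnb1 and Rapsn. For Chrnb1 and Rapsn it was lowest by little, with deviations of -0.10 and -0.03. Satellite replicate 3, the lowest for fibre markers, was the lowest for Chrna1 and Dok7, and also for Mymk and Mymx. The part of fibre or myocyte RNA in the member values was not tested.

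Markers of neurons, Schwann cells, endothelium, blood and smooth muscle were read too, and only the neuron list was low throughout. All 9 neuron markers, Chat among them, were low on all 6 arrays. Of 6 Schwann cell markers with a probe set 3 were called higher in PICs by limma (4 with the replicate block). None was called towards satellite cells, where 0 had an unadjusted limma p under 0.05. Among the 3, Cdh19 passed the filter only through its PIC arrays, so its call is no support for a difference. The Schwann cell markers had a summed intensity of 3453 to 14231 in PICs and 3851 to 10537 in satellite cells. None of 6 endothelial markers and none of 4 tested blood cell markers was called by limma, and 0 of either had an unadjusted p under 0.05. Endothelial markers summed to 1227 to 4512 in PICs and 2083 to 3128 in satellite cells. Blood cell markers summed to 107 to 7622 in PICs and 111 to 8991 in satellite cells, highest on replicate 1 of both. Of 5 tested smooth muscle and pericyte markers 1 was called in each direction, Acta2 towards satellite cells (-2.28) and Cspg4 towards PICs (2.23). The part of RNA of these cell types in the member values was not tested.

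The rest of the pathway was read from lists of related genes. The count called in each list stands beside 29.8% of all genes tested, 13.0% towards satellite cells and 16.7% towards PICs. Of 10 other nicotinic subunit genes with a probe set 7 were low on all arrays, and 3 were tested. Chrna7, the subunit of a homomeric channel, was higher in satellite cells, at 29, 33 and 47 against 7, 6 and 6 in PICs, where no level was measured, and thus at least 2.22-fold. It passed the filter only through its satellite arrays, as Rapsn and Chrng did, so its call is no support for a difference. Chrna4 and Chrnb2, subunits of the main brain receptor, were tested and not called, at -0.41 and 0.00. For Chrna4 the adjusted p was 0.0373 (limma), with a difference under 2-fold. Chrnb2 read 19 or 20 on every array, just over the low value level. The muscarinic receptor genes Chrm1, Chrm3 and Chrm4 were low on all arrays.

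Few genes that act downstream of MuSK were called. Of 22 tested 1 passed, against 29.8% of all genes tested, and the median difference was -0.13. The called gene was Actn2, a Z-disc actinin, at least 2.08-fold higher in satellite cells. It too entered the test only through its satellite arrays, where it read 36, 27 and 38 against 7, 10 and 9 in PICs. The adaptor genes Crk and Crkl, which bind Dok7, differed by 0.21 and -0.43. The kinase genes Abl1 and Abl2 differed by 0.29 and -0.37, and Dvl1, which binds MuSK, by -0.54 (limma, adjusted p = 0.0115, under 2-fold).

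Genes of receptor and MuSK turnover were mixed, with 2 of 12 called. Pdzrn3, a ubiquitin ligase that acts on MuSK, was higher in PICs at 3985, 4535 and 5568 against 727, 686 and 1273 (difference 2.44; limma, adjusted p = 0.000461). Its order was thus the reverse of that of Musk. Sh3glb1, a membrane curvature protein, was higher in satellite cells (-1.50). Trim63, Hdac9 and Dach2 were low on all arrays.

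Among 15 tested scaffold genes of the postsynaptic membrane 7 were called towards satellite cells and 1 towards PICs, and the median was -0.90. Dtna, alpha-dystrobrevin, read 156, 149 and 75 in satellite cells and 11, 7 and 8 in PICs, where no level was measured, so satellite cells were at least 7.52-fold higher. Dtna also passed the filter only through its satellite arrays. Dag1, dystroglycan, differed by -1.55, Ank3 by -1.90 and the intermediate filament gene Nes by -1.57. Nes was not called with the mean of its probe sets (limma, adjusted p = 0.149) or without the filter (0.0682). Ank2 was higher in PICs (1.68), and Sntb2, a syntrophin gene, was called there (1.64) only with the replicate block (limma, adjusted p = 0.012, against 0.104), array weights, the probe set mean or without PICs replicate 3. Utrn, the synaptic relative of dystrophin, differed by -0.30 and was not called (limma, adjusted p = 0.108).

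Agrn, the ligand gene that signals through Lrp4, read 993, 888 and 624 in PICs and 1274, 935 and 1053 in satellite cells. The populations overlapped and it was not called (difference -0.40, 95% interval -0.91 to 0.12; limma, adjusted p = 0.158). Agrin made by motor neurons has extra exons that raise its activity, and which form was read is not known from these values. The 10 genes of agrin and the synaptic basal lamina included 4 called towards PICs and 1 towards satellite cells, and their median was 0.84. Lamb2, the beta chain of synaptic laminins, was higher in PICs (1.62), as were Lama4 (3.05), Nid2 (2.97) and Col4a5 (3.18). Lama5 was higher in satellite cells (-3.94).

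In the neuregulin, ErbB and ETS list 1 of 7 tested genes was called, Erbb2, a neuregulin co-receptor, higher in PICs (1.38). Nrg1, Nrg2, Erbb4 and Etv4 were low on all arrays. Gabpa and Etv5, ETS factors linked to synaptic transcription, differed by -0.39 and -0.76 (limma, adjusted p = 0.0255 and 0.00292). Both differences were under 2-fold, so neither gene was called. Of 10 tested genes of receptor assembly and glycosylation 3 were called, beside 29.8% of all genes tested, and all 3 were higher in PICs. They were Gmppb (2.00), Gfpt1 (1.41) and Alg2 (1.40), sugar-pathway genes that are mutated in forms of congenital myasthenia. Alg14, of the same list, differed by -0.71 towards satellite cells, under 2-fold (limma, adjusted p = 0.0118), and was not called.

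**Figure D4:**
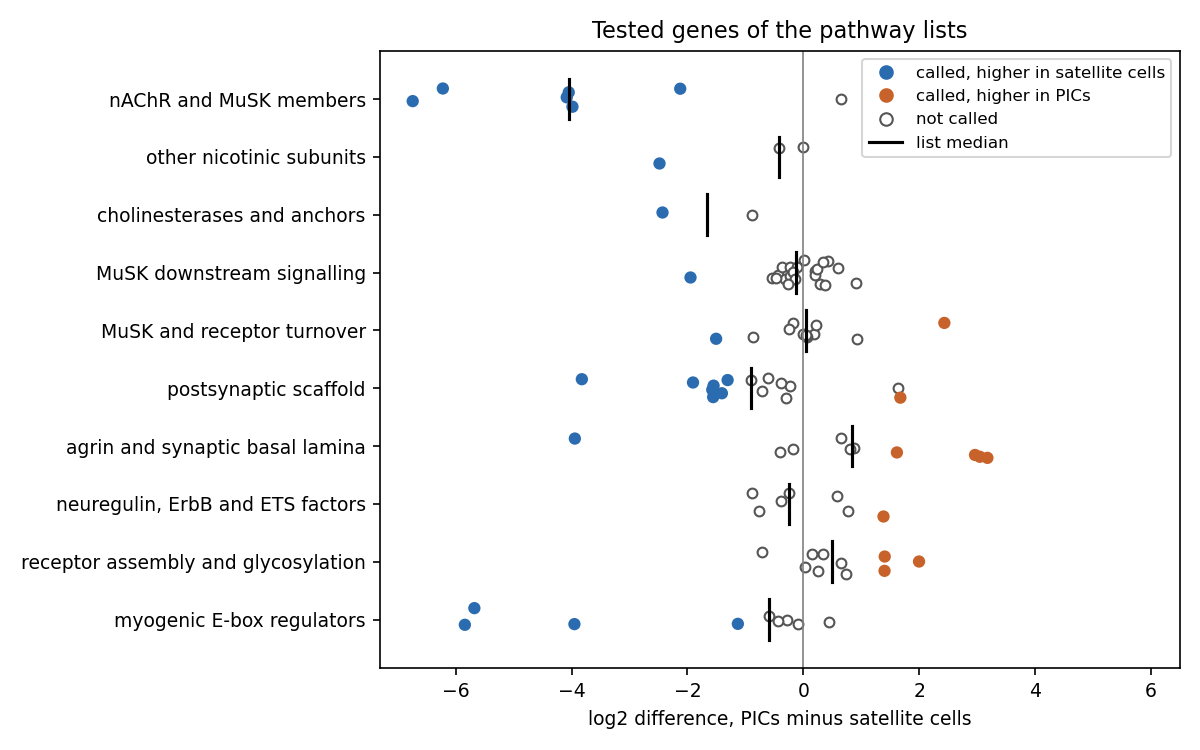
Log2 difference (PICs minus satellite cells, horizontal axis) of each tested gene in 10 lists (vertical axis), filled blue or orange where called higher in satellite cells or PICs, open where not called, with a black bar at the list median. The members' median is -4.05, and that of MuSK downstream signalling is -0.13.

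The MyoD family factors that bind E-boxes were read on the same arrays. Of 9 tested E-box regulators 4 were called, all towards satellite cells. None was called towards PICs, where 1 had an unadjusted limma p under 0.05. Myod1, Myog and Myf5 differed by -5.84, -5.68 and -3.95, and Id1, an inhibitor of such factors, by -1.13. Id1 was not called without the filter or without PICs replicate 1 or 2 or satellite replicate 2 or 3 (limma, adjusted p = 0.0339 to 0.0752, difference -1.13 to -0.86), which leaves 3 calls. The partner genes Tcf3, Tcf4 and Tcf12 differed by -0.59, 0.44 and -0.09 (limma, adjusted p = 0.00488, 0.0164 and 0.607). All 3 differences were under 2-fold, and none of these 3 was called. Myf6, the family member of maturing fibres, was low on all arrays.

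The genes whose pattern over the 6 arrays was most like that of Chrna1 were Heatr1, Slc38a1, Ppat, Megf10 and Bmi1, with Pearson r from 0.9982 to 0.9997. For Musk they were Pnpla2, Gsdme, Rangap1, Diablo and Lpin2, with r from 0.9949 to 0.9965. The 6 arrays fall into 2 populations, so r mostly reflects the population difference, and 1293 of 10845 genes had an r above 0.95 with Chrna1 and 714 with Musk.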

How the data were processed

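Total RNA (200 ng per array, per the labels) from 3 PIC and 3 satellite cell samples was read on 1-colour Affymetrix arrays. The deposited values are linear intensities, made by the authors with GCRMA per the submitters' processing notes (version not given in the sources used here) and rounded to whole numbers. Rounding makes the lowest values coarse, GCRMA compresses them, and 3 arrays per population limit the precision. Symbols of the platform annotation were updated through RefSeq gene numbers (GRCm38.p6): 34945 probe sets had 1 symbol, 932 several and 9160 none, and 34741 were matched.

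Values were taken to log2. Probe sets above 4 on at least 3 arrays were kept, and each gene was read by its kept probe set of highest mean over all arrays, giving 10855 genes. The test was limma 3.58.1 in R 4.3.3 (lmFit, then eBayes, two-sided), adjusted by Benjamini-Hochberg across those genes. It was also run on simulated data with independent noise and few changed genes. That run held no replicate pairing, so it does not cover the pairing described below. Where no array of a population was above 4, the fold is a bound taken from that level.

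The members and lists were chosen with earlier results of these data known. Named genes are the members, the called list genes of largest difference (up to 4 per direction), label markers and the 5 genes most like Chrna1 and Musk. Other list genes were named for a known role with their values in view.

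Both populations carry replicate numbers 1 to 3. Deviations of PIC and satellite arrays from their means correlated over genes at 0.623, 0.222 and 0.579 for equal numbers, and at -0.568 to 0.0363 for unequal ones. The pairing is seen in the data only, since the labels name no shared preparation. Tests are reported without it. Each p-value sets the population difference against the variance between arrays of a population, moderated by eBayes over all genes tested. In the reported tests the pairing is left in that variance.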

Additional observations from a re-analysis of the deposited data

How the results depend on the processing

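The 6 calls held under the mean or every probe set, no filter, an offset of 16, quantile normalization, median centring, array weights, an intensity trend, and without any 1 array. The exception is the stricter filter (log2 above 6), which left Musk untested and 5 members called. Rapsn and Chrng, with no PIC array above the low value level, are among these calls, and theirs are no support for a difference here either. With the replicate block 6 members and 3300 of 10855 genes were called, against 3230, and no member's call changed. It added Sntb2 (adjusted p = 0.012) to the scaffold genes and Sox10 (0.00779) to the Schwann cell markers, both towards PICs (limma). Over the alternatives the difference was -7.16 to -5.69 for Chrna1, -7.08 to -4.71 for Rapsn, -4.66 to -2.58 for Chrng and -2.46 to -1.47 for Musk. That of Lrp4 was 0.42 to 0.84 (limma, adjusted p = 0.012 to 0.197) and was called in none of them. Of 208 recomputed counts 48 differed from the reported one, 7 of them by over 1.5 times, all 7 for a pathway list. With the stricter filter 0 instead of 1 were called among other nicotinic subunits and MuSK downstream genes (limma). The MuSK downstream count was 2 with array weights and without PICs replicate 3. The neuregulin list had 3 calls with array weights and 2 without satellite replicate 1, instead of 1, and the cholinesterase list 2 with quantile normalization, instead of 1. Values near the low level limit what can be read for Chrnd, Chrne, Colq and the PIC side of Musk, Rapsn and Chrng.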
